A study of Rattus norvegicus with 88 samples.

Results

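The 4 genes described here encode subunits of ionotropic glutamate receptors and were followed in rats of the heterogeneous stock (HS), in the orbitofrontal cortex. They were Grin1 (ENSRNOG00000011726), Grin2a (ENSRNOG00000033942), Grin2b (ENSRNOG00000008766) and Gria1 (ENSRNOG00000045816). The list gives them by identifier, its rule uses no measured value of these genes, and all 4 had a row among the 17123 genes of the table. Poly(A) RNA from 80 HS rats, which are outbred animals bred from a cross of inbred strains, was sequenced, 1 library per rat. The rats were group housed, had received no drug and no behavioural testing, and differed by sex and by a rat batch number, whose meaning the labels do not state. There were 15 rats in batch 2 (11 male, 4 female), 22 in batch 3 (10 male, 12 female), 26 in batch 4 (12 male, 14 female) and 16 in batch 6 (8 of each sex). Batch 5 was 1 female, which entered no test of batch. No group carried an allele or a treatment that another lacked by design. The rats of a batch are separate animals, but they share whatever the batch number stands for.

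Ionotropic glutamate receptors are ligand-gated cation channels that carry most of the fast excitatory transmission in cortex. NMDA receptors are assemblies that need the GluN1 subunit, encoded by Grin1, together with GluN2 subunits. GluN2A (Grin2a) and GluN2B (Grin2b) are the main GluN2 subunits of the forebrain, and the exchange of GluN2B for GluN2A during postnatal development is a well known feature of cortical synapses. AMPA receptors open and close faster than NMDA receptors, and GluA1, encoded by Gria1, is the AMPA receptor subunit best known for its delivery to synapses during long-term potentiation.

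The promoter of Grin1, the subunit that every NMDA receptor needs, is shown because it was the one of the 4 genes with an entry in the promoter table used here; Grin2a, Grin2b and Gria1 had none. It is the sequence from RefSeq on build GRCr8, chr3:28528755-28529004, minus strand, written 5′ to 3′ on the strand of the gene, and it covers the 250 bases before the annotated start. Capitals mark TGACG, the core of the cAMP response element, on either strand.
Grin1: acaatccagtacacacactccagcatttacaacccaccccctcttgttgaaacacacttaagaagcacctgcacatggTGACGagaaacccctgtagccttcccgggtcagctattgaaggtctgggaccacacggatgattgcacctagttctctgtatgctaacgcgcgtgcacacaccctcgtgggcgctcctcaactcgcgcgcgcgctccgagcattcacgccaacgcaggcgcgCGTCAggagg
In the full window of 300 bases, which adds 50 bases after the start, TGACG was found 3 times on both strands together, at positions 79 to 83, 241 to 245 and 267 to 271 counted from the first base printed. It was present in 21.2% of the 33469 promoter windows of the same length. The GC box GGGCGG was found once, at positions 280 to 285, and was present in 33.1% of windows. CANNTG, the E-box, was found 2 times, at positions 66 to 71 and 72 to 77, next to the first TGACG but not overlapping it, and was present in 72.1% of windows. The window was 59.7% G or C and held 25 CpG dinucleotides, against medians of 51.7% and 7 over all windows. These matches describe letters only, and no factor or mark was measured at this promoter.

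Values are log2(normalized count + 1) as deposited, where the count was scaled by the authors to the upper quartile of each library. The recovered depth was 5.67 to 25.6 M reads per library (M, the prefix mega), with a median of 18.1. It counts the reads assigned to the 17123 genes of the table and not the raw reads. Every subunit was well covered at this depth. The lowest recovered numbers of reads were 3488 for Grin1, 131 for Grin2a, 134 for Grin2b and 582 for Gria1. The columns of the table ran in 3 stretches, within each of which the rat identifiers ascended, holding 21, 13 and 46 libraries; what the stretches stand for is not stated. Column stretch 3 held every rat of batches 4, 5 and 6 together with 3 rats of batch 3, and stretches 1 and 2 held all of batch 2 and the other 19 rats of batch 3. Rat batch and column stretch therefore largely cannot be told apart between batches 2 and 3 on one side and 4 and 6 on the other, and values within stretches are given beside the results they touch. Gene names could not be paired with the other identifiers of the table, so markers of cell types were not examined. In tissue of this kind fewer cells of a type and less RNA per cell cannot be told apart.

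The first comparison asked whether the subunit mRNAs differed between rat batches. All 4 genes differed between batches 2, 3, 4 and 6, with Grin2a and Grin2b highest in batch 6 and lowest in batch 2, Gria1 following the same order over a narrow range, and Grin1 lowest in batch 6. The largest difference between 2 batch means, adjusted for sex, was 1.68 on the log2 scale for Grin2a (limma F test, adjusted p = 6.52e-19), 0.75 for Grin2b (adjusted p = 2.91e-06), 0.29 for Grin1 (adjusted p = 1.90e-08) and 0.19 for Gria1 (adjusted p = 0.000478). The same test called 64.7% of all genes in the table, so that a difference between batches in itself was common. By size, the range of Grin2a was larger than that of 98.5% of all genes, that of Grin2b larger than 86.0%, that of Grin1 larger than 46.0% and that of Gria1 larger than 25.8%. The share of variance lying between batches was 70.7% for Grin2a, 42.8% for Grin1, 32.7% for Grin2b and 22.9% for Gria1, with a median of 20.4% over the 14803 genes with a mean of at least 3. Once column stretch was a term in the model, 1 of the 4 genes passed: Grin1 (range 0.17, adjusted p = 0.00490). Grin2a had a range of 0.77 (adjusted p = 0.0817), Grin2b of 0.34 (adjusted p = 0.281) and Gria1 of 0.08 (adjusted p = 0.504) in that model, in which 3178 genes passed in all. There, only the 3 rats of batch 3 in stretch 3 link batches 4 and 6 to batches 2 and 3. For Grin2a the SE of batch 4 less batch 2 was 0.29 with the term, against 0.14 without it. A difference across that divide that did not pass is therefore not shown to be absent. With 20 principal components as terms, the number that the study used as covariates, none of the 4 passed, and 1 gene did in all. The ranges were then 0.17 for Grin1 (adjusted p = 0.268), 0.43 for Grin2a (adjusted p = 0.339), 0.23 for Grin2b (adjusted p = 0.587) and 0.13 for Gria1 (adjusted p = 0.534). The components were taken from these same values, in which 64.7% of genes differed between batches. They can hold the batch differences themselves, so the fit with components cannot show whether those differences hold.

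**Figure D1:**
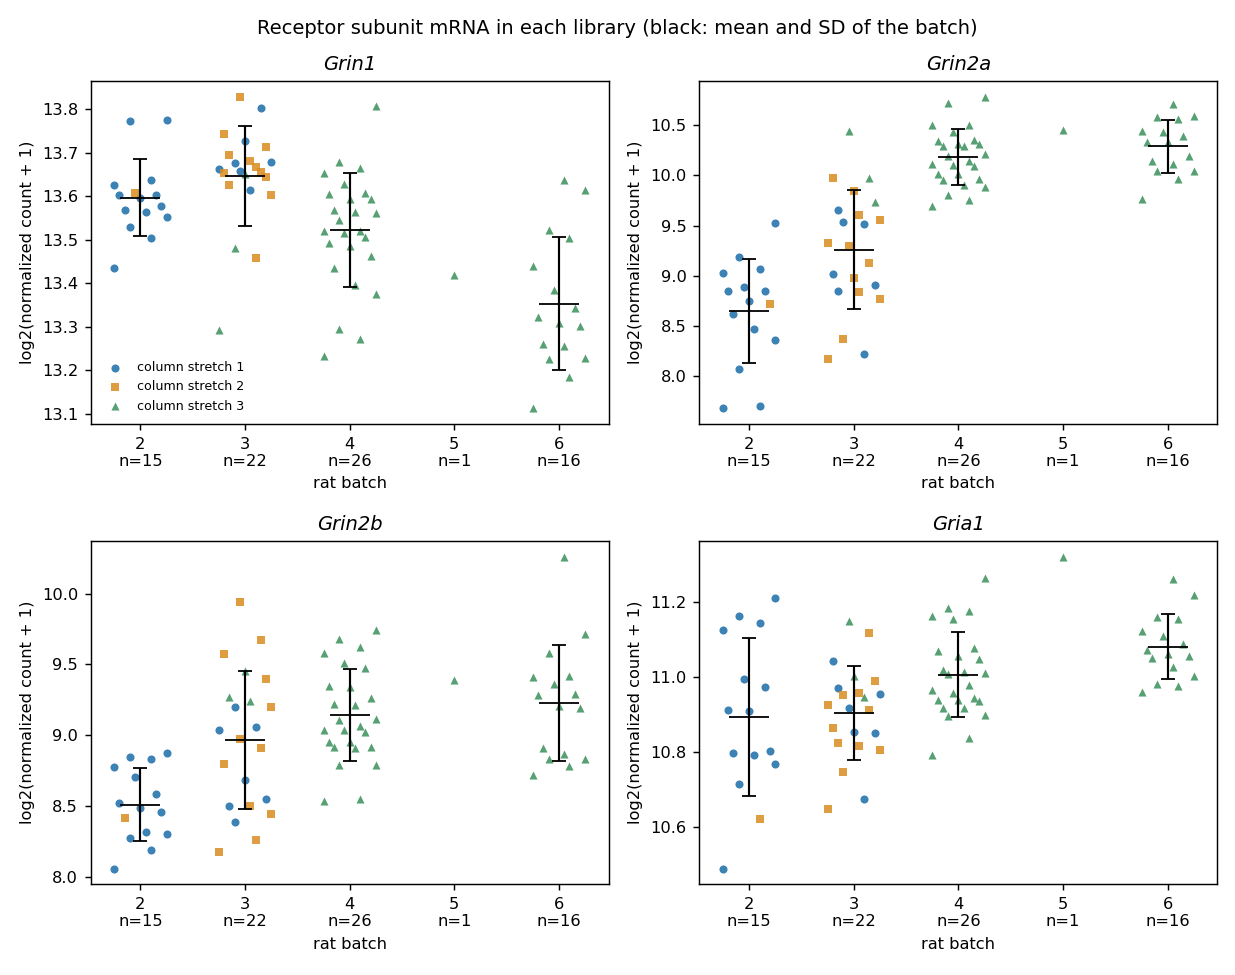
Level of each subunit mRNA by rat batch; every point is 1 library on the log2(normalized count + 1) axis, its shape and colour give the column stretch, and the black lines give the mean and SD of the batch. The Grin2a points of batch 2 lie between 7.68 and 9.52 and those of batch 4 between 9.70 and 10.78, and the Grin1 points of batch 6 lie lowest on average.

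Grin1, the obligatory subunit, was lower in batch 6 than in the other batches by a modest amount. Its normalized count ran from 11082 to 14017 in batch 2, with a median of 12383, and from 10032 to 14546 in batch 3, with a median of 12948. In batch 4 it ran from 9622 to 14323 with a median of 11848, and in batch 6 from 8856 to 12742 with a median of 10201. The ranges of all batches overlapped, and the shift of batch 6 was visible in the middle of the distribution rather than as a separation. Mean log2 values were 13.60 ± 0.09 (SD, n = 15), 13.65 ± 0.11 (SD, n = 22), 13.52 ± 0.13 (SD, n = 26) and 13.35 ± 0.15 (SD, n = 16) in batches 2, 3, 4 and 6. Grin1 was lower in batch 6 than in batch 2 by a fold of 1.19 (log2 difference -0.25, SE 0.05, limma adjusted p = 2.62e-06), lower than in batch 3 by a fold of 1.22 (log2 difference -0.29, SE 0.04, adjusted p = 7.25e-09) and lower than in batch 4 by a fold of 1.12 (log2 difference -0.17, SE 0.04, adjusted p = 0.00234). It was also lower in batch 4 than in batch 3 (log2 difference -0.12, SE 0.04, adjusted p = 0.00353), which quantile normalization took to -0.06 (adjusted p = 0.155). Batches 2 and 3 did not pass the threshold (0.04, 95% confidence interval -0.04 to 0.13, adjusted p = 0.587), nor did batches 2 and 4 (-0.08, interval -0.16 to 0.00, adjusted p = 0.0991). Batches 4 and 6 both lay in column stretch 3, where the difference fitted on those 42 libraries alone was -0.17 (SE 0.04, adjusted p = 0.00932). The 3 rats of batch 3 in stretch 3 had a mean of 13.47, against 13.67 in the other 19, and with stretch as a term the difference of batch 4 from batch 3 turned to 0.04 (adjusted p = 0.852). In that model batch 6 less batch 2 was -0.04 (adjusted p = 0.827) and batch 6 less batch 3 was -0.12 (adjusted p = 0.365), so that the difference from batch 4 was the one that passed.

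Grin2a, whose product gives NMDA receptors fast deactivation, differed most. Its normalized count ran from 204 to 734 in batch 2 (median 430.0) and from 288 to 1386 in batch 3 (median 635). In batch 4 it ran up to 1762 (median 1151; lowest value 9.70 on the log2 scale) and in batch 6 from 867 to 1677 (median 1284). The 15 rats of batch 2 all lay below the 26 rats of batch 4 and below the 16 rats of batch 6, and batch 3 spanned the gap, with 17 of its 22 rats below the lowest rat of batch 4. The share of all genes without overlap between these batches was not counted. Against batch 2, 24.5% of all genes were called higher in batch 4 and 27.2% in batch 6. Mean log2 values were 8.65 ± 0.52 (SD, n = 15), 9.26 ± 0.59 (SD, n = 22), 10.18 ± 0.28 (SD, n = 26) and 10.29 ± 0.26 (SD, n = 16) in batches 2, 3, 4 and 6. Against batch 2, Grin2a was 1.58-fold higher in batch 3 (log2 difference 0.66, SE 0.14, limma adjusted p = 0.000930), 2.99-fold higher in batch 4 (1.58, SE 0.14, adjusted p = 3.48e-16) and 3.20-fold higher in batch 6 (1.68, SE 0.15, adjusted p = 1.43e-15). Against batch 3 it was 1.89-fold higher in batch 4 (0.92, SE 0.12, adjusted p = 1.56e-09) and 2.03-fold higher in batch 6 (1.02, SE 0.14, adjusted p = 1.94e-09). The difference of batch 6 from batch 4 did not pass the threshold (0.10, 95% confidence interval -0.16 to 0.36, adjusted p = 0.665).

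The Grin2a level of a rat went with its column stretch as well as with its batch. Within batch 3, the 7 rats of stretch 1 had a mean of 9.10 ± 0.51 (SD) and the 12 rats of stretch 2 a mean of 9.16 ± 0.56 (SD). The 3 rats of batch 3 in stretch 3 had a mean of 10.05 ± 0.36 (SD) and normalized counts of 850, 1008 and 1386. These 3 values lay inside the range of batch 4, with which the rats shared the stretch, and the 2 higher ones lay inside that of batch 6 and above every other rat of batch 3. Taken alone, stretches accounted for 71.6% of the variance of Grin2a after sex, and batches for 70.7%. Batches accounted for 11.9% of what remained after stretch, and the share of stretches after batch was not computed. With stretch as a term, the log2 difference of batch 4 from batch 3 was 0.16 (SE 0.24, adjusted p = 0.832) and that of batch 6 from batch 2 was 0.77 (SE 0.30, adjusted p = 0.0860). In stretch 1 alone, which held 14 rats of batch 2 and 7 of batch 3, batch 3 was higher by 0.60 (SE 0.25, adjusted p = 0.198). Batches also differed in depth, with medians of 16.3, 16.8, 18.7 and 19.3 M reads in batches 2, 3, 4 and 6, and with log2 depth in the model all 4 genes still passed the batch test.

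Grin2b, whose product gives NMDA receptors slow deactivation and a tail that binds CaMKII, followed Grin2a in direction with smaller steps. Its normalized count ran from 266 to 470 in batch 2 (median 358) and from 288 to 983 in batch 3 (median 514). It ran from 370 to 857 in batch 4 (median 543) and from 421 to 1224 in batch 6 (median 606). The ranges overlapped between every pair of batches, but 22 of 26 rats in batch 4 and 11 of 16 in batch 6 lay above the highest rat of batch 2. Mean log2 values were 8.51 ± 0.26 (SD, n = 15), 8.97 ± 0.49 (SD, n = 22), 9.14 ± 0.33 (SD, n = 26) and 9.23 ± 0.41 (SD, n = 16). Grin2b was 1.40-fold higher in batch 3 (log2 difference 0.49, SE 0.13, limma adjusted p = 0.00676), 1.59-fold higher in batch 4 (0.66, SE 0.12, adjusted p = 3.83e-06) and 1.68-fold higher in batch 6 (0.75, SE 0.13, adjusted p = 2.23e-06) than in batch 2. Among batches 3, 4 and 6 no pair passed, and the differences were 0.18 (95% confidence interval -0.04 to 0.39) for batch 4 less batch 3, 0.26 (interval 0.01 to 0.50, adjusted p = 0.0705) for batch 6 less batch 3 and 0.08 (interval -0.15 to 0.32) for batch 6 less batch 4. Without the 3 rats of batch 3 in stretch 3 the difference of batch 6 from batch 3 was 0.31 (adjusted p = 0.0321), and with log2 depth or the number of genes at 0 as a term it was 0.34 (adjusted p = 0.0245 and 0.0194). With stretch as a term no difference of Grin2b between batches passed, and batch 3 was 0.34 above batch 2 (SE 0.16, adjusted p = 0.246).

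Gria1, the AMPA receptor subunit of the set, varied least between batches in the values as deposited. With quantile normalization its range was 0.23, against 0.20 for Grin1, and with voom on recovered reads it was 0.26, against 0.20. Its normalized count ran from 1436 to 2371 in batch 2 (median 1924), from 1603 to 2270 in batch 3 (median 1938), from 10.79 on the log2 scale up to a count of 2461 in batch 4 (median 2039) and from 1992 to 2455 in batch 6 (median 2144). All ranges overlapped; 16 of the 22 rats of batch 3 lay below the lowest rat of batch 6, and the spread narrowed from an SD of 0.21 on the log2 scale in batch 2 to 0.09 in batch 6. Mean log2 values were 10.89, 10.91, 11.01 and 11.08 in batches 2, 3, 4 and 6. Gria1 was 1.14-fold higher in batch 6 than in batch 2 (log2 difference 0.19, SE 0.05, limma adjusted p = 0.000783) and 1.13-fold higher than in batch 3 (0.18, SE 0.04, adjusted p = 0.000612). Batch 4 exceeded batch 2 by 0.11 (SE 0.04, adjusted p = 0.0289) and batch 3 by 0.10 (SE 0.04, adjusted p = 0.0313), calls that array weights took to adjusted p = 0.0962 and 0.0876. Batches 2 and 3 differed by 0.01 (95% confidence interval -0.08 to 0.11) and batches 4 and 6 by 0.07 (interval -0.01 to 0.16). With stretch as a term none of these differences passed.

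Counted over the 6 pairs of batches, 16 of 24 differences passed. Between batches 3 and 2, 2 genes were higher in batch 3 and 0 lower, where 4.56% of all genes were called higher and 5.23% lower. From batch 2 to batch 4, 3 were higher and 0 lower (24.5% and 24.1% of all genes), and from batch 2 to batch 6, 3 were higher and 1 lower (27.2% and 26.6%). From batch 3 to batch 4, 2 were higher and 1 lower (21.2% and 21.6%), and from batch 3 to batch 6 again 2 were higher and 1 lower (25.8% and 25.1%). Between batches 6 and 4, 0 were higher and 1 lower in batch 6 (6.11% and 7.49%). The contrasts share batches and are not independent of each other. With stretch as a term, 1 of the 24 passed, Grin1 between batches 6 and 4 (-0.17, adjusted p = 0.00149). Both of these batches lay wholly in stretch 3, whereas only 3 rats of batch 3 link them to batches 2 and 3. In that model 2578 of the 17123 genes passed between batches 6 and 4, of which 1385 were lower in batch 6. In the other pairs of batches 0 to 1685 genes passed.

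**Figure D2:**
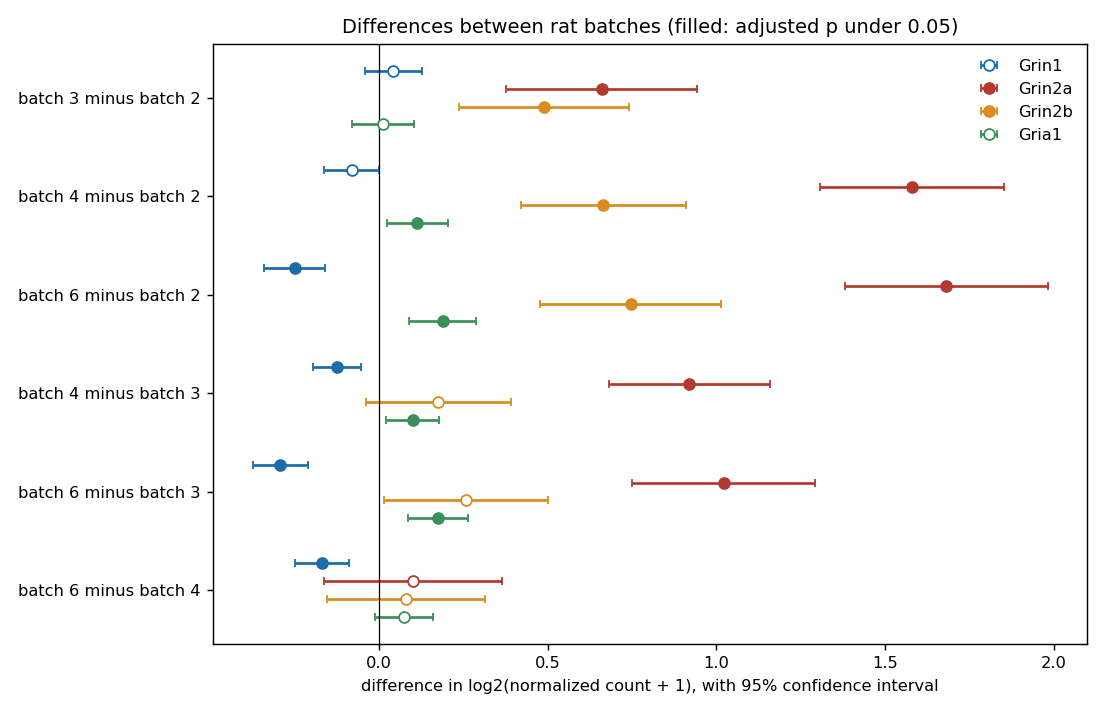
Difference of each subunit between pairs of rat batches, on the log2(normalized count + 1) axis, adjusted for sex; points are estimates, bars are 95% confidence intervals, and filled points passed the limma adjusted threshold. Grin2a reaches 1.68 between batches 6 and 2, while every Grin1 difference lies between -0.29 and 0.04.

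The ratio of 2 subunits within a library does not depend on how that library was scaled. Transcript lengths were not used, so a ratio is compared here between rats and not read as a ratio of molecules. The log2 ratio of Grin2a to Grin2b had means of 0.14 ± 0.49, 0.29 ± 0.36, 1.04 ± 0.22 and 1.06 ± 0.25 (SD; n = 15, 22, 26 and 16) in batches 2, 3, 4 and 6. It ran from -0.84 to 1.03 in batch 2 with a median of 0.17, from -0.36 to 0.98 in batch 3 with a median of 0.34, from 0.52 to 1.52 in batch 4 with a median of 1.04, and from 0.30 to 1.30 in batch 6 with a median of 1.13. Batches 4 and 6 thus sat above batches 2 and 3, with overlap at the edges. Batches accounted for 62.1% of the variance of this ratio after sex (permutation of batch within sex, adjusted p = 1.2e-05, adjusted over 6 ratios from an unadjusted 1e-05, the smallest the permutations can give). The 3 rats of batch 3 in stretch 3 had a mean of 0.73, against 0.23 in the other 19. With stretch removed as well, batches accounted for 5.45% (permutation adjusted p = 0.251).

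Relative to Grin1, both GluN2 subunits and Gria1 were higher in the later-numbered batches. The log2 ratio of Grin2a to Grin1 was -4.95 ± 0.53, -4.39 ± 0.66, -3.34 ± 0.34 and -3.06 ± 0.32 (SD) in batches 2, 3, 4 and 6, and 71.2% of its variance lay between batches. That of Grin2b to Grin1 was -5.09 ± 0.28, -4.68 ± 0.53, -4.38 ± 0.33 and -4.12 ± 0.45 (SD), with 41.2% between batches. That of Gria1 to Grin1 was -2.70 ± 0.22, -2.74 ± 0.20, -2.52 ± 0.20 and -2.27 ± 0.18 (SD), with 44.7% between batches. For Gria1 against the GluN2 subunits the order was the opposite. Gria1 to Grin2a had a mean of 2.24 in batch 2 and 0.79 in batch 6 (73.1% between batches), and Gria1 to Grin2b had means of 2.38 and 1.85 (25.04% between batches). All 6 ratios passed the permutation test (adjusted p from 1.2e-05 to 9e-05). Ratios of other genes were not tested, so how often a ratio passes in these data is not known. Of single genes, 64.7% differed between batches. With stretch removed, 2 of 6 passed: Gria1 to Grin1 (18.4% between batches, permutation adjusted p = 0.0116) and Gria1 to Grin2a (13.7%, permutation adjusted p = 0.0468).

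**Figure D3:**
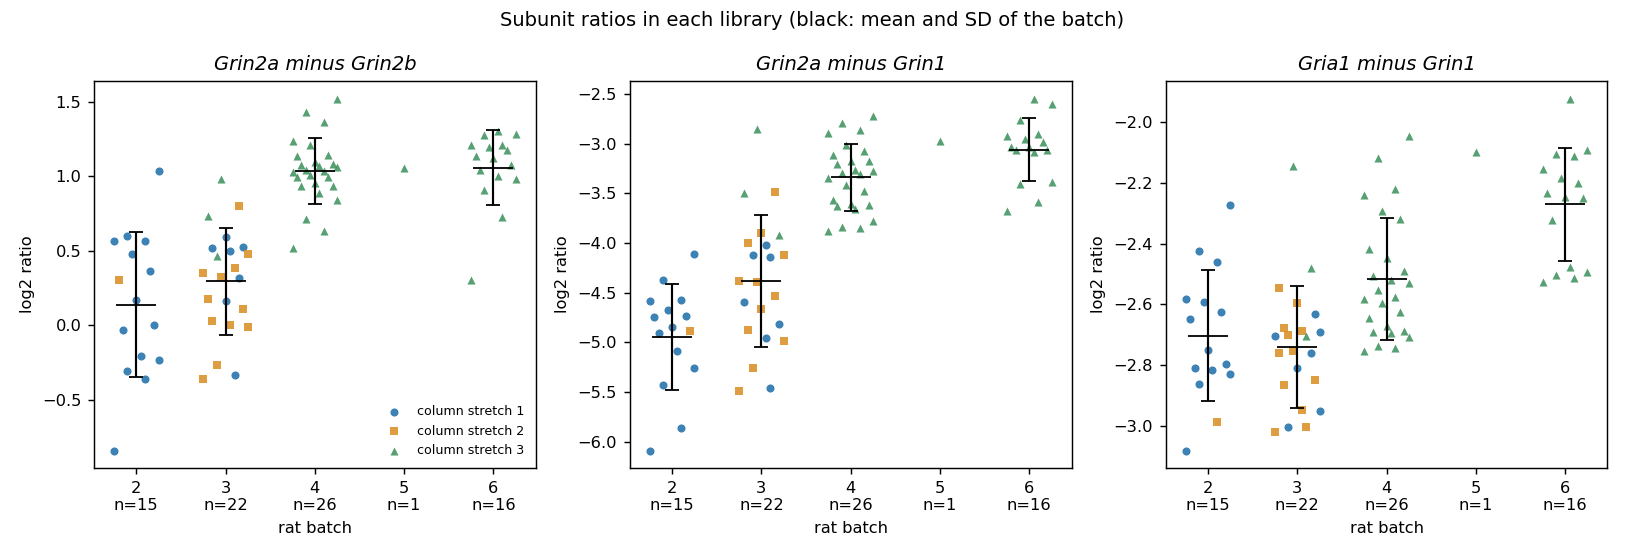
Log2 ratios of Grin2a to Grin2b, Grin2a to Grin1 and Gria1 to Grin1 by rat batch; every point is 1 library, its shape and colour give the column stretch, and black lines give the mean and SD of the batch. The Grin2a to Grin2b ratio lies near 0.14 and 0.29 on average in batches 2 and 3 and near 1.04 and 1.06 in batches 4 and 6, and the 3 triangles in batch 3 average 0.73.

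The second comparison asked whether males and females differed once batch was accounted for. No member passed. Grin2a was 9.65 ± 0.78 in 41 males and 9.68 ± 0.77 in 39 females (SD), and its difference with batch in the model was 0.18 higher in males (SE 0.10, 95% confidence interval -0.01 to 0.37, limma adjusted p = 0.725). Grin2b differed by 0.12 (interval -0.05 to 0.29, adjusted p = 0.817), Gria1 by 0.01 (interval -0.05 to 0.07, adjusted p = 0.984) and Grin1 by -0.02 (interval -0.08 to 0.04, adjusted p = 0.947). These intervals hold for the model with batch. With 20 principal components as terms the differences were -0.17 for Grin1 (interval -0.33 to -0.0051, adjusted p = 0.602), -0.38 for Grin2a (interval -0.75 to -0.02, adjusted p = 0.595), -0.78 for Grin2b (interval -1.24 to -0.31, adjusted p = 0.374) and -0.22 for Gria1 (interval -0.42 to -0.03, adjusted p = 0.559), lower in males for each gene and past the threshold for none. In the fit with components the median absolute sex difference over all genes was 0.16, against 0.04 without them. The components came from these same values and can hold part of a sex difference. The sex test with batch in the model and no components called 0.117% of all genes.

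Within batches the sex differences of the GluN2 subunits were unequal. In batch 3, Grin2a averaged 9.56 ± 0.41 in 10 males and 9.01 ± 0.62 in 12 females (SD), a difference of 0.56 (95% confidence interval 0.13 to 0.98, limma adjusted p = 0.809), and Grin2b differed by 0.39 (interval 0.03 to 0.76, adjusted p = 0.829). In batch 4 the differences were 0.01 for Grin2a and -0.06 for Grin2b, and in batch 6 they were 0.04 and -0.04. Batch 2 gave 0.06 for Grin2a and 0.25 for Grin2b, with only 4 females. The test of the difference itself, the interaction of sex and batch, passed for 0 of the 4 genes (limma adjusted p = 1 for each; unadjusted p = 0.0930 for Grin2a and 0.131 for Grin2b) and for 0% of all genes, of which 451 had an unadjusted p under 0.05. Array weights called 1 gene in that test and a pseudocount of 10 called 2, none of them a member.

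**Figure D4:**
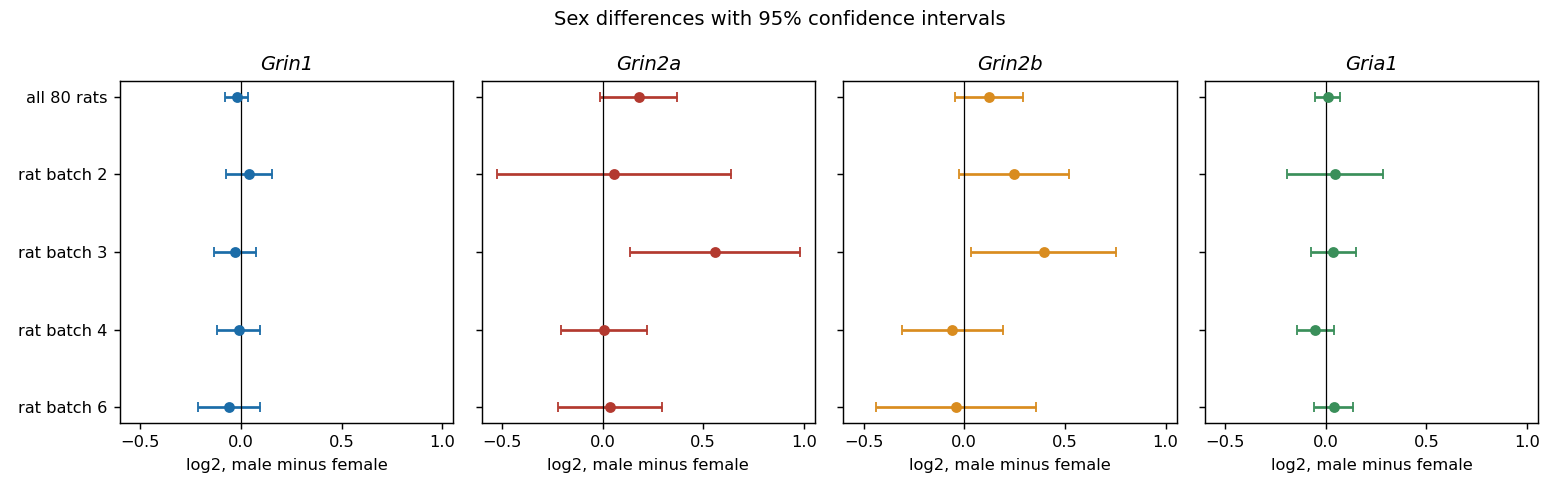
Male minus female difference of each subunit on the log2(normalized count + 1) axis, for all 80 rats with batch in the model and within each rat batch; points are estimates and bars 95% confidence intervals. The intervals of Grin2a and Grin2b in batch 3 lie above 0, and the interaction of sex and batch did not pass for either.

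None of the 6 subunit ratios differed between the sexes after adjustment. The nearest were Gria1 to Grin2a, which was 0.17 lower in males on the log2 scale (difference -0.17, permutation of sex within batch, unadjusted p = 0.0425, adjusted p = 0.216), and Grin2a to Grin1, which was 0.20 higher (permutation p = 0.0718, adjusted p = 0.216). The unadjusted group means of Gria1 to Grin2a were 1.32 in males and 1.30 in females, in the opposite order; the sexes were spread unequally over batches. The Grin2a to Grin2b ratio differed by 0.06 (permutation p = 0.453, adjusted p = 0.533).

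The third question was whether the subunits moved together from rat to rat. Since batches separated the rats for Grin2a, correlations are given on residuals after sex and batch means were removed, over 79 rats, and within each batch. Grin2a and Grin2b had a Pearson r of 0.67 (Spearman rho = 0.68, permutation adjusted p = 3e-05 over 6 pairs for r and 6e-05 for rho), and r was 0.70 without the 2 libraries farthest from the median. Within batches it was 0.38 in batch 2 (permutation adjusted p = 0.297 over 24 relations), 0.80 in batch 3 (permutation adjusted p = 0.00024), 0.74 in batch 4 (permutation adjusted p = 0.00036) and 0.80 in batch 6 (permutation adjusted p = 0.00144). The relation was positive in all 4 batches and passed in 3. It was 0.66 with column stretch removed too. Whether the strength differed between batches was not tested. Pairs of other genes were not tested either, so how often a correlation passes in these data is not known.

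**Figure D5:**
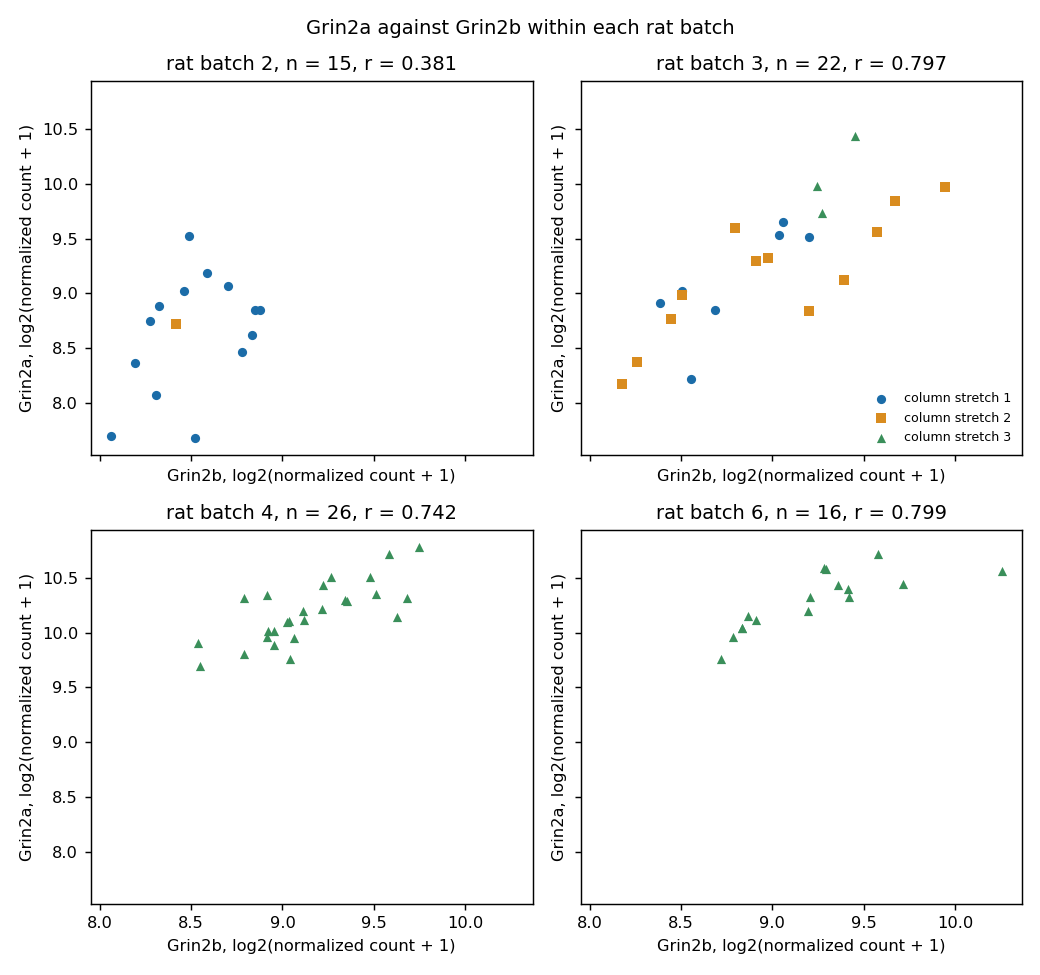
Grin2a against Grin2b, both on the log2(normalized count + 1) axis, in rat batches 2, 3, 4 and 6; every point is 1 library, with shape and colour for the column stretch, and r is Pearson's. Rats high for one were high for the other in batches 3, 4 and 6, with r of 0.797, 0.742 and 0.799, against 0.381 in batch 2.

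Grin2a also moved with Gria1. The residual r was 0.60 (rho = 0.54, permutation adjusted p = 3e-05 for r and 6e-05 for rho; r = 0.61 without 2 libraries), and the within-batch values were 0.58, 0.70, 0.62 and 0.43 in batches 2, 3, 4 and 6, of which batches 3 and 4 passed (permutation adjusted p = 0.00144 and 0.00312). Grin2b and Gria1 were less closely related, with an r of 0.29 (rho = 0.31, permutation adjusted p = 0.00844 for r; r = 0.32 without 2 libraries) and within-batch values from 0.20 to 0.36, none of which passed. Grin1 did not share in this. Its r was -0.26 with Grin2a (rho = -0.21, permutation adjusted p = 0.0194 for r and 0.0837 for rho), -0.18 with Gria1 (rho = -0.16, permutation adjusted p = 0.113) and -0.07 with Grin2b (rho = -0.04, permutation adjusted p = 0.577). The relation with Grin2a rested on few libraries: r was -0.16 without the 2 farthest, -0.17 with column stretch removed (permutation adjusted p = 0.151), -0.19 after quantile normalization (permutation adjusted p = 0.0982), -0.56 in batch 3 and between -0.24 and -0.05 in batches 2, 4 and 6.

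Among the 14802 other genes with a mean of at least 3, Grin2a ranked 11th by likeness to Grin2b on residuals, as a description. Read from Grin2a, Grin2b ranked 369th and Gria1 595th. Gria1 ranked 1555th when read from Grin2b. Read from Gria1, Grin2a ranked 198th and Grin2b 1988th. An r of at least 0.5 was found with 974 genes for Grin2a, 270 for Grin2b, 528 for Gria1 and 862 for Grin1. The gene most like Grin2a was ENSRNOG00000011059 (r = 0.90) and that most like Grin1 was ENSRNOG00000016414 (r = 0.86), both over 79 rats of the same 4 batches.

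Within batch and sex, the GluN2 subunits varied more from rat to rat than the other 2 members. The residual SD on the log2 scale was 0.43 for Grin2a and 0.38 for Grin2b, larger than in 82.6% and 79.0% of genes with a mean of at least 3. It was 0.13 for Grin1 and 0.14 for Gria1, larger than in 16.2% and 22%, and the median gene had 0.20. Grin2a and Grin2b had at least 131 and 134 recovered reads in every library. When 20 principal components of the table were removed as well, the SDs were 0.07, 0.16, 0.20 and 0.08 for Grin1, Grin2a, Grin2b and Gria1, against a median of 0.14. The r of Grin2a with Grin2b was then 0.13 (permutation adjusted p = 0.569) and that of Grin2a with Gria1 was 0.27 (permutation adjusted p = 0.125). The components were taken from these same values, the members included, and can hold the variation that the members share. The fit with components therefore cannot show whether these correlations hold.

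Properties of the libraries moved with some members. The 10 highest genes took 7.12% to 17.5% of the counts of a library. After sex and batch, this share had an r of 0.52 with Grin2b (rho = 0.43, permutation adjusted p = 0.00024 over 12 relations; 0.41 without 2 libraries), of 0.35 with Grin2a (rho = 0.30, permutation adjusted p = 0.0283; 0.28 without 2 libraries) and of -0.34 with Grin1 (rho = -0.35, permutation adjusted p = 0.0137; -0.33 without 2 libraries). With Gria1 it was -0.17 (rho = -0.19, permutation adjusted p = 0.237). Recovered depth and the number of genes at 0 passed for no member after sex and batch; the values nearest were those of Grin2b, with an r of -0.19 for log2 depth and 0.23 for genes at 0 (permutation adjusted p = 0.191 and 0.186). The leading residual component of all other genes, which held 4.55% of their variance, had an r of -0.71 with Grin1, 0.40 with Grin2a, 0.34 with Gria1 and 0.05 with Grin2b (permutation adjusted p = 4e-05, 0.00082, 0.00119 and 0.706). With that component removed, Grin2a and Grin2b had an r of 0.71 (permutation adjusted p = 3e-05), while Grin1 and Grin2a had 0.04. As the component was nearly unrelated to Grin2b, its removal could hardly lower the r of Grin2a with Grin2b. The correlations were not refitted with the share of the 10 highest genes removed. The part of these library properties in the differences between batches was not tested, apart from depth and genes at 0.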

How the data were processed

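RNA-Seq values of orbitofrontal cortex from 80 of the 88 labelled samples were used; 8 samples labelled as removed have no column and were not analysed here, and 0 columns were left without a sample. By the study's methods, single-end reads were trimmed (cutadapt) and quantified per gene on the Ensembl rat transcriptome (RSEM; the labels name Rnor_6.0). The authors then scaled the estimated counts to the upper quartile with DESeq2, added a pseudocount of 1 and deposited log2 values. A difference on this scale understates the change of low genes. What 1 read was worth in a library, its step, was recovered from the whole numbers among values up to 300. In every library at least 99.6% of these were multiples of that step after rounding. Steps ran from 0.73 to 3.51 with a median of 1.06. At a step of 1 or less every whole number is such a multiple, and just above 1 nearly every one is. In those libraries the share is no check of the step. Recovered reads gave the depth and an added voom fit.

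Models were fitted with limma 3.58.1 (lmFit, eBayes with trend; R 4.3.3) on all 17123 genes, with sex as covariate for batch and batch for sex, and Benjamini-Hochberg adjustment over all genes. Ratios and correlations used 100000 permutations, two-sided for correlations and sex, and the smallest p they can give is 1e-05. Intervals are at 95%. The 4 members and all lists were chosen with earlier results of these data known. The members are named as the list that defines them names them; the RefSeq table held 0 Ensembl identifiers, so a planned list of other glutamate receptor genes and the cell type markers could not be matched and were not run. Genes named for likeness were those with the highest residual r. Alternatives changed the pseudocount, the filter (mean of at least 3), the normalization, weights, terms and libraries; fits by column stretch, voom on recovered reads and removal of the leading component were added after seeing the data. The limma fits, the permutation tests and the recovery of the step were tested on simulated data. Python 3.11.15, numpy 2.4.6, scipy 1.17.1, pandas 2.3.3 and matplotlib 3.10.9 were used.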

Additional observations from a re-analysis of the deposited data

Results flagged for a closer look

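Among the 10 males of batch 3, replicate 17 stood apart from the others on 3 measures. Its Grin1 log2 value was 13.29, below the next lowest of 13.60, and its log2 ratios were -2.86 for Grin2a to Grin1 (next -3.90) and -2.14 for Gria1 to Grin1 (next -2.68). The 3 measures share the same low Grin1 value. This rat is 1 of the 3 of batch 3 in column stretch 3. The 4 groups of 4 to 10 rats of one sex and batch were looked at for 10 measures each, 40 in all, and chance alone would give about 1 in 20. No other value stood apart by this measure, and no sex difference of a member differed between batches by the interaction test.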

How the results depend on the processing

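No paired analysis was possible because each rat gave 1 library to these data. Over 513 values recomputed under the alternatives, 442 were held as unchanged. For tests this means the same side of the threshold, and the same direction where the value has a sign. For counts of passing results and for SDs it means close to the first value. The 4 members differing between batches became 1 with a column stretch term and 0 with 20 principal components. The components came from these same values and can hold the batch differences themselves, so the 0 does not decide whether they hold. The 16 of 24 pairwise differences became 1 with the stretch term, and the 6 ratios differing between batches became 2. With that term only 3 rats of batch 3 link batches 4 and 6 to batches 2 and 3. The smaller counts therefore do not decide whether the differences across that divide hold. Quantile normalization and the stretch term each ended the correlation of Grin1 with Grin2a. The 4 correlations passing became 0 after 20 components, which took the residual SDs of Grin1, Grin2a, Grin2b and Gria1 to 0.066, 0.155, 0.199 and 0.080. The components can also hold variation that the members share, so this 0 does not decide whether the correlations hold.

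Signs turned as follows, with none past the threshold. With the stretch term, batch 4 less batch 2 was 0.13 for Grin1; batch 4 less batch 3 was 0.045 for Grin1, -0.16 for Grin2b and -0.025 for Gria1; batch 6 less batch 3 was -0.076 for Grin2b. Batch 3 less batch 2 for Gria1 was -0.012 in stretch 1 alone and -0.0085 without the batch 3 rats of stretch 3. The sex difference, male less female, turned with 20 components for Grin2a (-0.38), Grin2b (-0.78) and Gria1 (-0.22), with no batch term for Grin2a (-0.033) and Gria1 (-0.013), with array weights (-0.012) and voom (-0.0016) for Gria1, in batch 2 alone for Grin1 (0.037), in batch 4 alone for Grin2b (-0.060) and Gria1 (-0.051), and in batch 6 alone for Grin2b (-0.041). After 20 components r was 0.034 for Grin1 with Grin2a, 0.065 for Grin1 with Grin2b and 0.18 for Grin1 with Gria1; after the leading component it was 0.037 for Grin1 with Grin2a and 0.10 for Grin1 with Gria1. The cause of these changes was not tested. Without batch 2, Grin2b did not pass the batch test (adjusted p = 0.171), and in the 41 males alone Gria1 did not (adjusted p = 0.0651), with a range of 0.19 as in all rats. Across the table the stretch term took the genes differing between batches from 11078 to 3178, 20 components to 1 and females alone to 6156; array weights took those between batches 6 and 4 from 2329 to 4034. For sex, 20 genes became 36 with voom and 31 with array weights.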

Other observations

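The single rat of batch 5, a female in column stretch 3, entered no test of batch but was among the 39 females of the sex tests. Its log2 values were 13.42 for Grin1, 10.45 for Grin2a, 9.39 for Grin2b and 11.32 for Gria1, the last being the highest of the 80 rats. Its log2 ratio of Grin2a to Grin2b was 1.06, and that of Gria1 to Grin1 was -2.10.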
